A study of Mus musculus with 2 samples.

Results

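The genes *Lcn2*, *Chil1*, *Lyz1*, *Lyz2*, *Lrg1*, *Pgc*, *Rgcc*, *Osgin1*, *S100g* and *Bex2* are a group of 10 among the 32285 genes in the files. They are genes of airspace defence and of maturation in alveolar type 2 (AT2) cells, the surfactant-making cells of the alveolus. They were chosen by name with their values in the same 2 libraries already known, so their differences between the libraries are given as a description, without a test. The study asks what follows when the Hedgehog inhibitor gene *Hhip* is deleted in lung stroma after birth. Single-cell RNA-seq was made from the lung of 1 control mouse and 1 *Gli1 HHIPCKO* mouse at postnatal day 14. Both mice were *Gli1 creERT/+;Hhip flox/flox*, and the control mouse was given oil where the *Gli1 HHIPCKO* mouse was given tamoxifen. The Cre is driven by *Gli1*, a gene of stromal cells, so stroma and not AT2 cells was the target, and recombination in AT2 cells was not tested. Tamoxifen, mouse and library differ together, so their effects and that of the deletion cannot be told apart. Both sorts excluded CD31 and CD45. Stromal cells were also sorted against CD326, epithelial cells were gated as CD326-positive per the paper while the design text names exclusion alone, and the sorted cells were mixed at a fixed ratio before loading, so the shares of cell classes in a library were set in part by the sort.

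Proteins that AT2 cells and airway cells release into the lining fluid take part in defending the alveolar surface against bacteria. Lipocalin 2 binds the iron carriers of bacteria, lysozymes cut the bacterial cell wall, the chitinase-like protein CHIL1 binds sugars without cutting them, and LRG1 is a secreted leucine-rich glycoprotein. *Pgc* encodes progastricsin, a protease precursor that AT2 cells use in processing surfactant protein B, while *Rgcc*, *Osgin1*, *S100g* and *Bex2* encode proteins that work inside the cell.

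The control library held 10999 cells with 43291709 unique molecular identifiers (UMIs, counted molecules), and the *Gli1 HHIPCKO* library 12350 cells with 52338969 UMIs. The median cell had 3531 UMIs in control and 3720 in *Gli1 HHIPCKO*. After filtering, 10917 and 12115 cells remained. The libraries shared 193 cell barcodes, of which 185 belonged to cells kept in both; leaving these cells out moved no member's log2 ratio in AT2-like cells by more than 0.02. The targeted gene *Hhip* was at 744 counts per 1000000 UMIs of the class (CPM) in mesenchymal-like cells of control and 174 CPM in those of *Gli1 HHIPCKO*, in the direction of the labels. In AT2-like cells *Hhip* had 48 UMIs in control and 25 in *Gli1 HHIPCKO*, or 3.31 and 1.49 CPM. Which exon is floxed is not given in the sources used here, so the remaining *Hhip* UMIs may lie outside the deleted part. *Xist* had 9 UMIs in AT2-like cells of control and 2035 in those of *Gli1 HHIPCKO*, and the Y-linked genes *Ddx3y*, *Uty*, *Kdm5d* and *Eif2s3y* had 246, 112, 93 and 419 UMIs in control and 0 in *Gli1 HHIPCKO*. Sex-linked transcripts thus differed between the mice, and sex and condition cannot be told apart.

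AT2-like cells numbered 2931 in control and 2796 in *Gli1 HHIPCKO*, with medians of 4814 and 5735.5 UMIs. All 12 AT2 markers had a UMI in at least 10% of these cells in each library, and *Etv5*, the least often detected, was in 69.6% and 77.4%. *Sftpc*, the most abundant, made up 31.5% of all UMIs of AT2-like cells in control and 27.6% in *Gli1 HHIPCKO*. Among 13 immune genes none passed the detection filter in AT2-like cells, their summed level was 4.07 and 3.998 CPM, *Fcer1g* was the most abundant at 1.59 and 1.49 CPM, and *Marco*, *S100a8*, *S100a9* and *Cd3e* were at 0 in both libraries. That list leaves out *Cd79b*, a marker of lymphoid cells, which was in 14.1% and 19.99% of AT2-like cells at 31.1 and 37.4 CPM. The 17 myeloid markers summed to 5.87 and 9.25 CPM, led by *Fcer1g* in control and *Cd68* in *Gli1 HHIPCKO*. Of 11 markers of alveolar type 1 cells, 4 were detected in at least 10% of AT2-like cells, with a summed level of 1867 CPM in control against 1330.5 CPM in *Gli1 HHIPCKO*, of which *Ager* gave 1166 and 733 CPM. The class was made of 2 clusters that split by library. Cluster 0 held 687 control and 2319 *Gli1 HHIPCKO* cells and had the stress gene *Atf3* among its leading genes, and cluster 1 held 2244 control and 477 *Gli1 HHIPCKO* cells, led by *Chia1* and *Ager*. The members were held out of the clustering. A further cluster with AT2 markers and collagen transcripts was left without a name and held 400 control cells (3.66% of the library) and 436 *Gli1 HHIPCKO* cells (3.60%), of which a doublet score called 88.75% and 78.2%. Of ciliated-like cells it called 14.1% and 6.20%. A cluster of shallow cells with AT2 markers, with 349 and 191 cells, was also left without a name. By thresholds set after the clusters were seen, shallow clusters left out 4.01% of control and 3.50% of *Gli1 HHIPCKO* cells, clusters with more markers of another class 2.38% and 3.86%, and a cluster with red cell transcripts 2.02% and 0.751%.

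Levels are CPM over the summed UMIs of a class, each followed by an exact Poisson 95% interval, and log2 ratios are *Gli1 HHIPCKO* over control with an exact 95% interval. With 1 mouse per condition these intervals cover counting error only and say nothing of the spread between mice. Among 5039 genes with a UMI in at least 10% of AT2-like cells of either library and at least 50 UMIs in all, the median log2 ratio was 0.04. All 10 members passed this filter, although *Osgin1*, in 6.04% of control against 18.5% of *Gli1 HHIPCKO* AT2-like cells, passed through the *Gli1 HHIPCKO* library alone. At least 2-fold higher levels in *Gli1 HHIPCKO* were found for 3 members, *Rgcc*, *Osgin1* and *Lcn2*, beside 0.873% of all genes tested. The *Lcn2* call was lost with no genes held out of the clustering, where its log2 ratio was 0.74. Here and below, that setting held only 273 control AT2-like cells, against 2377 of *Gli1 HHIPCKO*. The difference of mean log-normalized values, a measure on another scale than a log2 ratio of CPM, was 0.20 for *Osgin1*, against its log2 ratio of 1.65. *Pgc* was the 1 member at least 2-fold lower, beside 0.298% of all genes tested. This call was lost with no genes held out, at -0.65, and in cluster 1 alone, at -0.95, and the difference of mean log-normalized values of *Pgc* was -0.17. The median log2 ratio of the 10 members was 0.55, and 8 of their intervals lay above 0 and 2 below, beside 1600 above and 1097 below among the 5039 genes. The members were picked on this contrast, so nothing is read from these counts.

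*Lcn2* (ENSMUSG00000026822, chr2:32384633-32388252 on GRCm38) was at 969 CPM (953 to 985) in control AT2-like cells against 2128 CPM (2106 to 2150) in those of *Gli1 HHIPCKO*. The log2 ratio was 1.13 (1.11 to 1.16), a fold of 2.20, and *Lcn2* was in place 29 when the 5039 genes were ordered from the highest ratio. The gene had a UMI in 88.5% of control against 97.0% of *Gli1 HHIPCKO* AT2-like cells. Since the *Gli1 HHIPCKO* cells were deeper, each cell was also thinned to 2000 UMIs, which left out 103 control and 52 *Gli1 HHIPCKO* AT2-like cells. The thinned share was 71.7% in control against 87.0% in *Gli1 HHIPCKO*. In mesenchymal-like cells, which should lack the gene and had medians of 2895 and 3072 UMIs, the thinned share was 1.01% and 2.05%, with 1108 and 1469 cells left out. At least 5 thinned UMIs were present in 8.42% of control against 29.6% of *Gli1 HHIPCKO* AT2-like cells, so cells with many *Lcn2* molecules made up more of the *Gli1 HHIPCKO* library. The highest thinned cell had 26 UMIs in control and 84 in *Gli1 HHIPCKO*.

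*Chil1* (ENSMUSG00000064246, chr1:134182176-134190181) was at 1757 CPM (1735 to 1778) in control against 2823 CPM (2797 to 2848) in *Gli1 HHIPCKO*, with a log2 ratio of 0.68 (0.66 to 0.71). Thinned to the same depth, *Chil1* was in 89.9% of control against 96.9% of *Gli1 HHIPCKO* AT2-like cells, from 96.1% and 99.1% unthinned, and in 2.62% and 3.08% of thinned mesenchymal-like cells. The median thinned cell held 3 *Chil1* UMIs in control and 5 in *Gli1 HHIPCKO*, so the difference was present in the middle of the distribution and not in a tail alone. *Lrg1* (ENSMUSG00000037095, chr17:56119678-56122001) was at 95.2 CPM (90.2 to 100.4) in control against 176 CPM (170 to 183) in *Gli1 HHIPCKO*, with a log2 ratio of 0.89 (0.79 to 0.98). With no genes held out of the clustering the log2 ratio was -0.07 for *Lrg1* and 0.29 for *Chil1*. The difference of mean log-normalized values, which is on another scale, was 0.44 for *Lrg1*. The *Lrg1* share of thinned AT2-like cells was 11.8% in control against 21.5% in *Gli1 HHIPCKO*, from 19.4% and 42.5% unthinned. In mesenchymal-like cells the thinned share of *Lrg1* was 0.148% and 0.243%. Most AT2-like cells therefore had no *Lrg1* UMI in either library, while *Chil1* was found in nearly every cell.

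The lysozyme genes are the most counted of the members. *Lyz2* (ENSMUSG00000069516, chr10:117277331-117282321) was at 19778 CPM (19706 to 19850) in control against 22770 CPM (22698 to 22843) in *Gli1 HHIPCKO*, with a log2 ratio of 0.20 (0.20 to 0.21). *Lyz1* (ENSMUSG00000069515, chr10:117287797-117292868) was at 6017 CPM (5977 to 6057) in control against 7974 CPM (7931 to 8017) in *Gli1 HHIPCKO*, with a log2 ratio of 0.41 (0.39 to 0.42). Under other processing choices *Lyz1* ranged from 0.12 to 0.58 and *Lyz2* from 0.08 to 0.33. Both were lowest with no genes held out of the clustering. The 0.58 of *Lyz1* was the difference of mean log-normalized values, which is on another scale. The genes are neighbours on the minus strand of chromosome 10, 5475 bases apart. Their longest transcripts are 96.0% identical over 1262 aligned bases, and 44 of the 1174 windows of 90 bases in *Lyz1* also occur in *Lyz2*, so a part of the reads could have been dropped or put on the wrong copy. Thinned, *Lyz2* was in 97.0% of control against 97.2% of *Gli1 HHIPCKO* AT2-like cells, from 98.1% and 98.5% unthinned. Thinned *Lyz1* was in 49.0% of control against 55.7% of *Gli1 HHIPCKO* cells, from 56.5% and 64.1% unthinned. In thinned mesenchymal-like cells the shares were 29.0% and 24.8% for *Lyz2* and 8.99% and 9.15% for *Lyz1*, with a mean of 0.389 and 0.327 UMIs per cell for *Lyz2* against 38.2 and 45.0 in AT2-like cells.

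*Lyz1* was not spread evenly over AT2-like cells. Taking at least 5 thinned UMIs as a working limit, 62.1% of control cells (60.3% to 63.9%, exact binomial interval) had *Lyz2* alone, 31.7% (30.0% to 33.5%) had both genes and 5.13% (4.34% to 6.01%) had *Lyz1* alone. In *Gli1 HHIPCKO* these shares were 55.2% (53.4% to 57.1%), 39.9% (38.0% to 41.7%) and 4.77% (4.01% to 5.64%). The cells with *Lyz1*, alone or with *Lyz2*, were a larger share in *Gli1 HHIPCKO*, and those with *Lyz2* alone a larger share in control. Few cells lay near the limit, with 3 to 6 *Lyz1* UMIs in 102 control and 93 *Gli1 HHIPCKO* cells and 3 to 6 *Lyz2* UMIs in 45 and 26. Neither gene reached the limit in 30 control and 3 *Gli1 HHIPCKO* cells.

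Where both genes were present they were counted at like levels, and where 1 was missing the other was higher. Control cells with both genes had a mean of 27.6 thinned *Lyz1* and 28.4 *Lyz2* UMIs, those with *Lyz2* alone 46.9 *Lyz2* UMIs, and those with *Lyz1* alone 50.4 *Lyz1* UMIs. The sum of the genes was 56.0, 47.2 and 51.3 UMIs in these kinds of cell. In *Gli1 HHIPCKO* the sums were 65.1 UMIs with both genes, 57.0 with *Lyz2* alone and 63.1 with *Lyz1* alone. The summed lysozyme count was thus higher in *Gli1 HHIPCKO* within each of these 3 kinds of cell. The split was alike in the clusters. Cells with both genes made up 32.5% of control against 40.1% of *Gli1 HHIPCKO* cells in cluster 0, and 31.5% and 38.6% in cluster 1. *Lcn2* had a mean of 1.88 thinned UMIs in control cells with both genes and 1.81 in those with *Lyz2* alone, and 4.23 and 3.88 in *Gli1 HHIPCKO*. *Lrg1* had a mean of 0.317 UMIs in the 145 control cells with *Lyz1* alone, 0.231 in those with both and 0.164 in those with *Lyz2* alone, and 0.321, 0.341 and 0.359 in *Gli1 HHIPCKO*, so its order was not the same in the libraries.

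**Figure D1:**
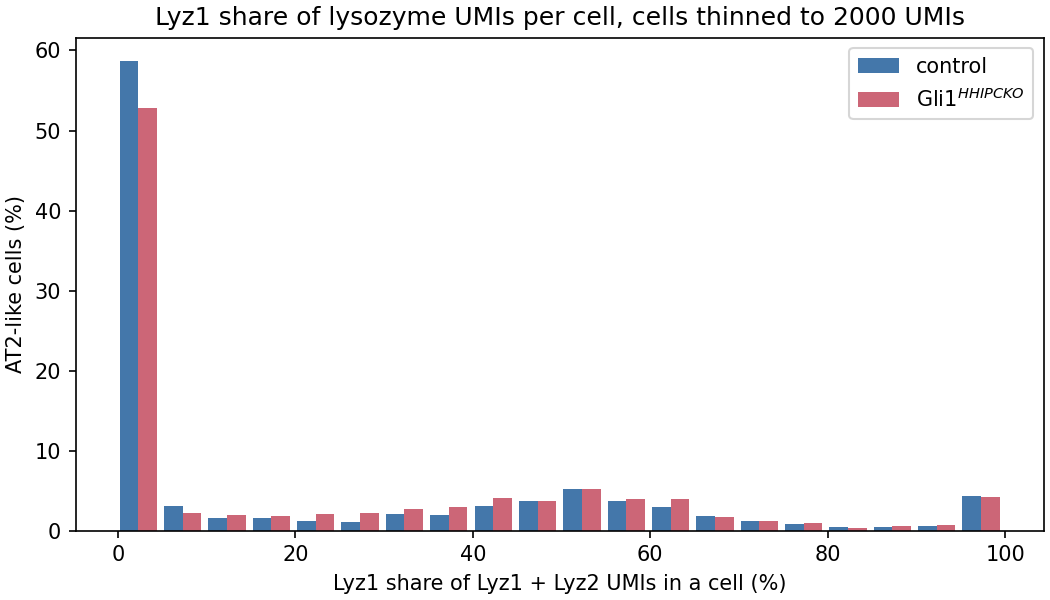
Share of *Lyz1* among the *Lyz1* and *Lyz2* UMIs of a cell, for AT2-like cells thinned to 2000 UMIs with at least 10 lysozyme UMIs (2772 control and 2733 *Gli1 HHIPCKO* cells). Bars give the percent of cells per 5-point interval: 58.7% of control against 52.9% of *Gli1 HHIPCKO* cells lie in the lowest interval, 4.33% and 4.24% in the highest, and a broad group lies around 50%.

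*Pgc* (ENSMUSG00000023987, chr17:47726842-47734482) was at 54.1 CPM (50.3 to 58.0) in control AT2-like cells against 22.9 CPM (20.6 to 25.3) in *Gli1 HHIPCKO*, with a log2 ratio of -1.24 (-1.42 to -1.06). It was in place 5 when the tested genes were ordered from the lowest ratio. *Pgc* UMIs were found in 18.7% of control cells against 10.98% of *Gli1 HHIPCKO* cells, and in 9.16% and 3.39% after thinning. In thinned mesenchymal-like cells they were found in 0.0987% of control cells and in 0 of 5358 *Gli1 HHIPCKO* cells. No AT2-like cell had more than 3 thinned *Pgc* UMIs, so at this depth cells without the gene and cells with few molecules could not be separated.

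*Rgcc* (ENSMUSG00000022018, chr14:79288756-79301645), a regulator of the cell cycle, was at 266 CPM (258 to 275) in control against 1087 CPM (1071 to 1103) in *Gli1 HHIPCKO*. The log2 ratio of 2.03 (1.98 to 2.08), a fold of 4.08, put it in place 4 of 5039. Its share of AT2-like cells was 57.6% in control against 95.9% in *Gli1 HHIPCKO*, and 37.1% and 81.9% after thinning. In thinned mesenchymal-like cells it was in 4.39% and 8.70%, mostly in a few clusters given further on. The median thinned cell held 0 *Rgcc* UMIs in control and 2 in *Gli1 HHIPCKO*. The gene was thus found in most *Gli1 HHIPCKO* cells and in a smaller part of control cells at equal depth. *Osgin1* (ENSMUSG00000074063, chr8:119434124-119446256), named for its response to oxidative stress, was at 13.1 CPM (11.3 to 15.1) in control against 41.2 CPM (38.2 to 44.4) in *Gli1 HHIPCKO*, from 190 and 690 UMIs. Its log2 ratio was 1.65 (1.42 to 1.89), with 2.19% of thinned control and 7.76% of thinned *Gli1 HHIPCKO* cells holding a UMI, from 6.04% and 18.5% unthinned. Under other processing choices *Osgin1* ranged from 0.20 to 1.79. The lowest value came from the difference of mean log-normalized values, which is on another scale, and the highest with no genes held out of the clustering. In thinned mesenchymal-like cells *Osgin1* was in 0.420% and 0.523%.

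*S100g* and *Bex2* lie on the X chromosome, and *Xist* and the Y-linked genes differed between the mice. *S100g* (ENSMUSG00000040808, chrX:162961992-162964599), a small calcium-binding protein, was at 1221 CPM (1203 to 1239) in control against 1409 CPM (1391 to 1427) in *Gli1 HHIPCKO*, with a log2 ratio of 0.21 (0.18 to 0.23). *Bex2* (ENSMUSG00000042750, chrX:136066564-136068236), an adaptor protein of a family found in placental mammals, was at 807 CPM (793 to 822) in control against 749 CPM (736 to 762) in *Gli1 HHIPCKO*, with a log2 ratio of -0.11 (-0.14 to -0.07). With each library clustered on its own *Bex2* was at 0.01, and with no genes held out of the clustering at -0.37. Over the 138 X-linked genes tested the median log2 ratio was 0.05, near that of all genes. Thinned shares were 85.5% and 88.7% for *S100g* and 74.0% and 70.8% for *Bex2*, from 95.5% and 98.2%, and 90.2% and 91.2%, unthinned. In thinned mesenchymal-like cells they were 1.58% and 1.12% for *S100g* and 1.21% and 1.01% for *Bex2*. *Bex2* had the smallest difference of the members, and *Lyz2* and *S100g* the next.

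Together the members took up 3.098% of the UMIs of AT2-like cells in control and 3.92% in *Gli1 HHIPCKO*, while the share of *Sftpc* was lower in *Gli1 HHIPCKO*. When the members, the surfactant genes and the mitochondrial genes were left out of the total, the log2 ratios were 1.08 for *Lcn2*, 0.15 for *Lyz2*, 0.15 for *S100g* and -0.16 for *Bex2*, and the median of all tested genes was -0.01. The directions of the members were thus the same with and without the largest transcripts in the total. A median of 5 of the 10 members was detected in a thinned control cell and 6 in a thinned *Gli1 HHIPCKO* cell.

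The split of AT2-like cells into library-rich clusters left the directions in place. In cluster 0 *Lcn2* was at 1024 CPM in control against 2069 CPM in *Gli1 HHIPCKO*, and in cluster 1 at 947 and 2505 CPM. *Rgcc* was at 269 and 1104 CPM in cluster 0 and at 265 and 978 CPM in cluster 1. Within each library, then, *Rgcc* was at like levels in both clusters. *Pgc* was at 58.3 and 22.2 CPM in cluster 0 and at 52.4 and 27.1 CPM in cluster 1, the latter a log2 ratio of -0.95 (-1.36 to -0.57). *Lrg1* had a log2 ratio of 0.65 (0.50 to 0.80) in cluster 0 and 1.23 (1.07 to 1.39) in cluster 1. For *Bex2* in cluster 1 the interval held 0 (-0.15 to 0.00), the 1 case among the 10 members and 2 clusters.

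**Figure D2:**
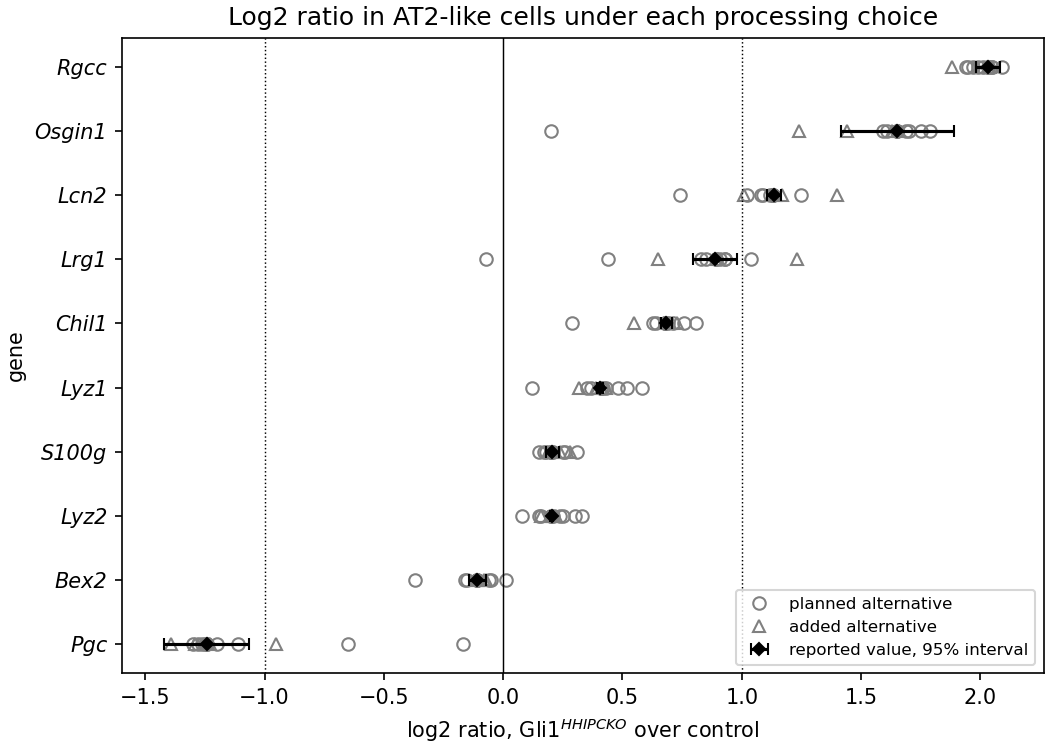
Log2 ratio of each member in AT2-like cells, *Gli1 HHIPCKO* over control (horizontal axis), with its exact 95% interval for counting error (black) and its values under 14 other processing choices (grey). *Rgcc* lies between 1.88 and 2.09 under all of them, while *Lrg1* reaches -0.07 and *Bex2* 0.01. The grey values include the difference of mean log-normalized values, which is on another scale than a log2 ratio.

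Across AT2-like cells of a library, *Lcn2*, *Chil1* and *Lrg1* varied together. The Pearson correlation of log-normalized values between *Lcn2* and *Chil1* was 0.30 over 2931 control cells and 0.49 over 2796 *Gli1 HHIPCKO* cells. Between *Lcn2* and *Lrg1* it was 0.23 and 0.31, and between *Chil1* and *Lrg1* 0.16 and 0.24. The cells of a library share 1 mouse and 1 preparation, and depth differs between them. These were the highest values among the 45 pairs of members in each library, where the median was 0.01 and 0.00. The lowest was between *Lyz1* and *Lyz2*, at -0.43 in control and -0.48 in *Gli1 HHIPCKO*. Among 4259 genes, those most alike to *Lcn2* on average over the libraries were *Chil1* (0.39), *Cxcl15* (0.27) and *Lrg1* (0.27). To *Chil1* they were *Lcn2*, *Hp* (0.21) and *Lrg1* (0.20), and to *Bex2* they were *Bex4* (0.21), *Fabp5* (0.21) and *Sftpc* (0.21). For *Lyz1*, *Pgc* and *Osgin1* the highest averages were 0.08, 0.07 and 0.06, from which no relation is read.

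**Figure D3:**
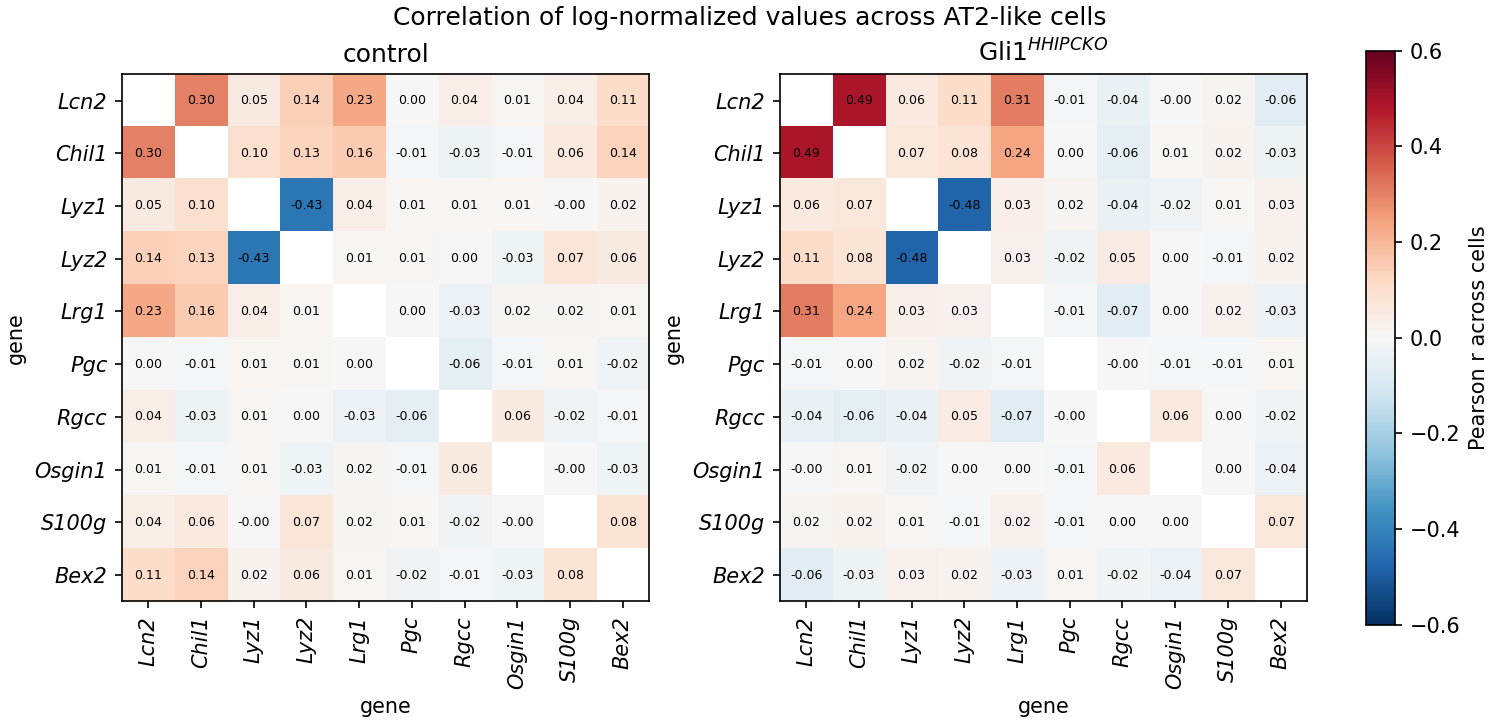
Pearson correlation of log-normalized values between members across AT2-like cells, for 2931 control cells (left) and 2796 *Gli1 HHIPCKO* cells (right). *Lcn2*, *Chil1* and *Lrg1* form the red group, at 0.16 to 0.30 in control and 0.24 to 0.49 in *Gli1 HHIPCKO*, and *Lyz1* with *Lyz2* is the blue pair at -0.43 and -0.48.

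Promoters are shown for the 3 members that varied together, as the 250 bases before the RefSeq start on GRCm38.p6, where all 10 members had an entry. They were searched on both strands for the C/EBP motif spelled TTGCNNAA and the STAT motif TTCNNNGAA. Capitals mark the C/EBP match, which in *Lcn2* starts 216 bases before the RefSeq start. The RefSeq start is not always the end of the gene as placed above from GENCODE: the *Lcn2* window lies wholly inside that gene, and the *Lrg1* window in part. The windows are chr2:32387740-32387989, minus strand, for *Lcn2*, chr1:134181906-134182155, plus strand, for *Chil1* and chr17:56121947-56122196, minus strand, for *Lrg1*.
Lcn2: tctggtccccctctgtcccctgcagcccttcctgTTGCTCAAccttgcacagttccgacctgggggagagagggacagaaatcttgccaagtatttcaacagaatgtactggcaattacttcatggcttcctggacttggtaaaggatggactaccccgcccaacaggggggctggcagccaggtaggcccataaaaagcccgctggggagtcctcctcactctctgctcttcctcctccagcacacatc
Chil1: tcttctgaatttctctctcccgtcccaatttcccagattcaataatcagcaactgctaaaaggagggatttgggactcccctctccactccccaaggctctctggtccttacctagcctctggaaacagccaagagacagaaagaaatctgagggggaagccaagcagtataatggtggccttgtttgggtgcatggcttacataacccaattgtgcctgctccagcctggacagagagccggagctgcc
Lrg1: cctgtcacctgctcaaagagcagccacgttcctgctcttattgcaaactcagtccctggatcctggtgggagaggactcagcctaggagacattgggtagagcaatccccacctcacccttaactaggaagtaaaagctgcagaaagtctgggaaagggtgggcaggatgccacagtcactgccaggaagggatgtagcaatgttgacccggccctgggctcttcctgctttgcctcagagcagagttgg
No STAT match was found in the 10 windows, and C/EBP matches were found in those of *Lcn2*, *Lyz1*, *Bex2* and *S100g*. Of 32851 promoter windows of this length, 9.56% held the C/EBP letters and 7.02% the STAT letters. A match describes the letters and is no binding site, and no match says only that these letters are not in this window.

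The windows of *Lyz1* and *Lyz2* are shown because cells differed in which of these copies their UMIs were counted for. Compared position by position without gaps, 152 of 250 bases were identical, a count that a shift between the windows lowers, and capitals mark the longest identical stretch, the last 50 bases before the RefSeq start, nearly all of which lie inside *Lyz2* as placed above. The windows are chr10:117292869-117293118, minus strand, for *Lyz1* and chr10:117282273-117282522, minus strand, for *Lyz2*.
Lyz1: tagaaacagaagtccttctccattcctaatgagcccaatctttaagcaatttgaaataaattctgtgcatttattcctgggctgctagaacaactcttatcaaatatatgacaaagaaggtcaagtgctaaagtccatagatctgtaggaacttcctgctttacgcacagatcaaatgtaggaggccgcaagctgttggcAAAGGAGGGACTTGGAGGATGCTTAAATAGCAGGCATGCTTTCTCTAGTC
Lyz2: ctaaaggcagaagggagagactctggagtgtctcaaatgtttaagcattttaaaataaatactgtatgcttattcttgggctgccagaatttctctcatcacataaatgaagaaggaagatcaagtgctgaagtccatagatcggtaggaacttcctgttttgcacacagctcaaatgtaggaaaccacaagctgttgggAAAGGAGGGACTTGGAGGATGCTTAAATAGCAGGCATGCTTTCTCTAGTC

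Other genes of these roles were counted from lists in AT2-like cells. Of 20 secreted defence genes 8 were tested, and *Slpi*, a protease inhibitor, was the 1 of these past 2-fold, at 76.7 CPM in control against 215 CPM in *Gli1 HHIPCKO* (log2 ratio 1.49, 1.39 to 1.58). Of 19 acute phase and C/EBP genes 10 were tested and none of these passed 2-fold. The median log2 ratio of the 10 was 0.34, with 8 intervals above 0 (1600 of all 5039 genes), among them *Socs3* at 0.61, *Cebpd* at 0.32 and *Junb* at 0.49, and 1 below 0, *Il6st* at -0.29. Among those too rarely detected to be tested, *Saa3* had 3 UMIs in control and 44 in *Gli1 HHIPCKO* and *Orm1* 6 and 49, in 0.429% and 0.715% of *Gli1 HHIPCKO* cells. So few cells hold these UMIs that no interval is given. Others were nearer 0, with *Bcl3* at -0.02, *Osmr* at 0.21, *Fgg* at 0.37 and *Il6ra* at -0.47. The 12 surfactant genes tested had a median of 0.04, near that of all genes, and none passed 2-fold. They went both ways, with 7 intervals above 0 and 4 below. The values ran from *Scd1* at -0.45 to *Sftpa1* at 0.37, with *Sftpc* at -0.19. Of 10 relatives of the lysozymes, of the chitinase-like proteins, of *Lcn2* and of *Pgc*, only *Chia1* was tested, at 176 CPM in control against 86.2 CPM in *Gli1 HHIPCKO*, with a log2 ratio of -1.03 (-1.13 to -0.94). *Chil1* and its relative *Chia1* thus had opposite directions.

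Around *Osgin1*, 7 of 10 targets and regulators of the oxidative stress factor NRF2 were tested and none passed 2-fold. *Txnrd1* was at 0.75 (0.59 to 0.91) and *Gsr* at 0.42, while *Hmox1* was at -0.26 and the list's median was 0.03. Around *Bex2*, the family members *Bex1*, *Bex3*, *Bex4*, *Tceal8* and *Tceal9* had log2 ratios of 0.13, -0.11, 0.40, -0.06 and -0.08. Around *S100g*, 3 of 9 calcium and vitamin D genes were tested, with a median of -0.07 and *S100a10* at -0.36. Of the AT2 transcription factors (11 of 12 tested, median 0.05) and MHC class II genes (6 of 7 tested, median 0.13), no tested gene was past 2-fold. The transcription factor *Sox9*, too rarely detected to be tested, was at -1.08 (-1.44 to -0.73) from 194 and 106 UMIs. Of the 8 club markers 2 were tested in AT2-like cells, with a summed list level of 815 CPM in control against 617 CPM in *Gli1 HHIPCKO*, led by *Scgb1a1* in control. Of the 6 collagen and other mesenchymal genes 4 were tested, with summed levels of 183 and 166 CPM, *Col3a1* at -0.38 and *Mfap4* at 0.64 (0.44 to 0.83). *Mfap4*, in 8.39% of control against 15.9% of *Gli1 HHIPCKO* AT2-like cells, passed the detection filter through the *Gli1 HHIPCKO* library alone. The summed levels of the longer list of 25 mesenchymal markers had the other order, at 515 and 569 CPM, led by *Macf1* at 106 and 140.0 CPM. The part of these cell types' transcripts in the members' values was not tested.

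Outside the AT2 class the other epithelial cells were ciliated-like (256 control and 129 *Gli1 HHIPCKO* cells, medians of 3900.5 and 4447 UMIs) and club-like (41 and 15 cells). In ciliated-like cells *Lcn2* was at 144 CPM in control against 327 CPM in *Gli1 HHIPCKO*, *Lyz2* at 2917 and 3933 CPM, *Rgcc* at 54.0 and 229 CPM, and *Osgin1* at 15.9 and 50.3 CPM. Of the 8 members tested there, 3 were at least 2-fold higher in *Gli1 HHIPCKO* (*Lcn2*, *Rgcc* and *Osgin1*), beside 0.94% of 6063 genes, and 0 were at least 2-fold lower, beside 1.07%. *Osgin1*, in 5.86% of control against 13.2% of *Gli1 HHIPCKO* ciliated-like cells, passed the detection filter through the *Gli1 HHIPCKO* library alone, and *Lrg1* and *Pgc* did not pass it. These levels came from few cells. *Sftpc* reached 1% of UMIs in 48 control and 24 *Gli1 HHIPCKO* ciliated-like cells, and these cells carried 95.6% and 96.9% of the members' UMIs in the class. The limit of 1% is a point on a range, and 35 control and 5 *Gli1 HHIPCKO* cells lay within a factor of 2 of it.

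In the 208 control and 105 *Gli1 HHIPCKO* ciliated-like cells below that limit, most members had few UMIs. *Lcn2* had 7 UMIs in control and 2 in *Gli1 HHIPCKO*, or 8.43 and 4.43 CPM, with a log2 ratio of -0.93 (-4.23 to 1.46). *Rgcc* had 11 and 4 UMIs, or 13.2 and 8.85 CPM. The higher *Lcn2* and *Rgcc* levels of *Gli1 HHIPCKO* ciliated-like cells were thus not detectable once cells with much *Sftpc* were left out. *Lyz2*, higher in *Gli1 HHIPCKO* over all ciliated-like cells, was lower there, at 164 and 115 CPM, with a log2 ratio of -0.51 (-0.9997 to -0.04). *Osgin1* and *Pgc* had intervals above 0. *Pgc* had 4 UMIs in control and 9 in *Gli1 HHIPCKO*, in 1.92% and 3.81% of these cells. Its log2 ratio was 2.05 (0.21 to 4.20), and with so few molecules and cells this interval is not read. *Osgin1* had 13 UMIs in control and 31 in *Gli1 HHIPCKO*, or 15.7 CPM (8.34 to 26.8) and 68.6 CPM (46.6 to 97.4), and was in 4.81% and 14.3% of these cells. Beside the 13.1 and 41.2 CPM of AT2-like cells, the control interval held the AT2-like value and the *Gli1 HHIPCKO* interval lay above it, while *Sftpc* was at 1563 and 956 CPM.

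Club-like cells were too few in *Gli1 HHIPCKO* to compare. In control, 19 of 41 had at least 1% *Sftpc* UMIs and carried 95.6% of the members' UMIs. *Rgcc* was in 21 of 41 control and 9 of 15 *Gli1 HHIPCKO* club-like cells, and *Lyz2* in 22 and 10. In club-like cells below 1% *Sftpc*, *Rgcc* was in 45.5% of 22 control cells (24.4% to 67.8%) and 57.1% of 14 *Gli1 HHIPCKO* cells (28.9% to 82.3%). Its UMIs there were 15 in control and 47 in *Gli1 HHIPCKO*, or 77.6 and 1313 CPM. These levels rest on few cells and are given without a comparison.

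In mesenchymal-like cells (5159 control and 6827 *Gli1 HHIPCKO* cells in 12 clusters), *Sftpc* was at 2675 CPM in control against 1526 CPM in *Gli1 HHIPCKO*, an AT2 transcript that these cells should lack. Clusters 5 and 6 held 1399 and 954 control cells against 25 and 217 of *Gli1 HHIPCKO*, and cluster 2 held 1813 *Gli1 HHIPCKO* and 35 control cells. Of the members, *Lyz1*, *Lyz2* and *Rgcc* were in at least 10% of mesenchymal-like cells of either library, and the other 7 were not tested there. *Lyz2* was at 202 CPM in control against 171 CPM in *Gli1 HHIPCKO*, 75.5 and 112 UMIs per 1000 *Sftpc* UMIs, against 62.7 and 82.5 in AT2-like cells. *Lyz1* was at 59.1 and 53.4 CPM, 22.1 and 35.0 per 1000 *Sftpc* UMIs, against 19.1 and 28.9. Relative to *Sftpc*, mesenchymal-like cells thus held 1.20 and 1.36 times the *Lyz2* and 1.16 and 1.21 times the *Lyz1* of AT2-like cells, and the CPM of both genes was lower in *Gli1 HHIPCKO*, as *Sftpc* was. *Lcn2* was at 5.83 CPM in control against 12.2 CPM in *Gli1 HHIPCKO*, or 2.18 and 8.01 per 1000 *Sftpc* UMIs, against 3.07 and 7.71 in AT2-like cells.

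*Rgcc* and *Osgin1* departed from this. *Osgin1*, from 38 UMIs in control and 52 in *Gli1 HHIPCKO*, was at 2.33 and 2.30 CPM, and relative to *Sftpc* at 20.96 (14.8 to 28.8) and 10.1 (7.55 to 13.3) times its AT2-like level. For *Rgcc* these ratios were 15.7 and 12.3. The *Osgin1* intervals leave out the counting error of its AT2-like level. In mesenchymal-like cells *Rgcc* was at 35.5 CPM (32.7 to 38.5) in control against 73.9 CPM (70.4 to 77.5) in *Gli1 HHIPCKO*, with a log2 ratio of 1.06 (0.92 to 1.20), and at 13.3 and 48.4 UMIs per 1000 *Sftpc* UMIs, against 0.844 and 3.94 in AT2-like cells. It passed the detection filter through the *Gli1 HHIPCKO* library alone, with a UMI in 7.17% of control against 14.6% of *Gli1 HHIPCKO* cells, and was the 1 member of 3 tested at least 2-fold higher, beside 1.83% of 5565 genes, and 0 of the 3 were at least 2-fold lower, beside 0.719%. Clusters 7 and 23, singled out after their values were seen and led by *Pdzd2*, *Cox4i2* and *Trpc6*, held 70.8% of the *Rgcc* UMIs of control mesenchymal-like cells and 70.4% of those of *Gli1 HHIPCKO*. In cluster 7 *Rgcc* was at 469 CPM in 431 control cells and 771 CPM in 723 *Gli1 HHIPCKO* cells, with a log2 ratio of 0.72 (0.54 to 0.90), and in 50.1% and 69.0% of cells. Outside these clusters it was at 11.2 CPM (9.53 to 13.0) in control against 24.0 CPM (21.9 to 26.2) in *Gli1 HHIPCKO*. Mesenchymal-like cluster 17 had the other order, at 259 CPM in 108 control cells and 29.9 CPM in 286 *Gli1 HHIPCKO* cells, with a log2 ratio of -3.12 (-4.30 to -2.07) from 34 and 10 UMIs. The 34 UMIs lay in 1.85% of the control cells. Clusters 2 and 22 were also lower in *Gli1 HHIPCKO*, at 26.8 and 20.9 CPM and at 23.6 and 16.0 CPM, from 3 and 8 control UMIs, with intervals that held 0.

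**Figure D4:**
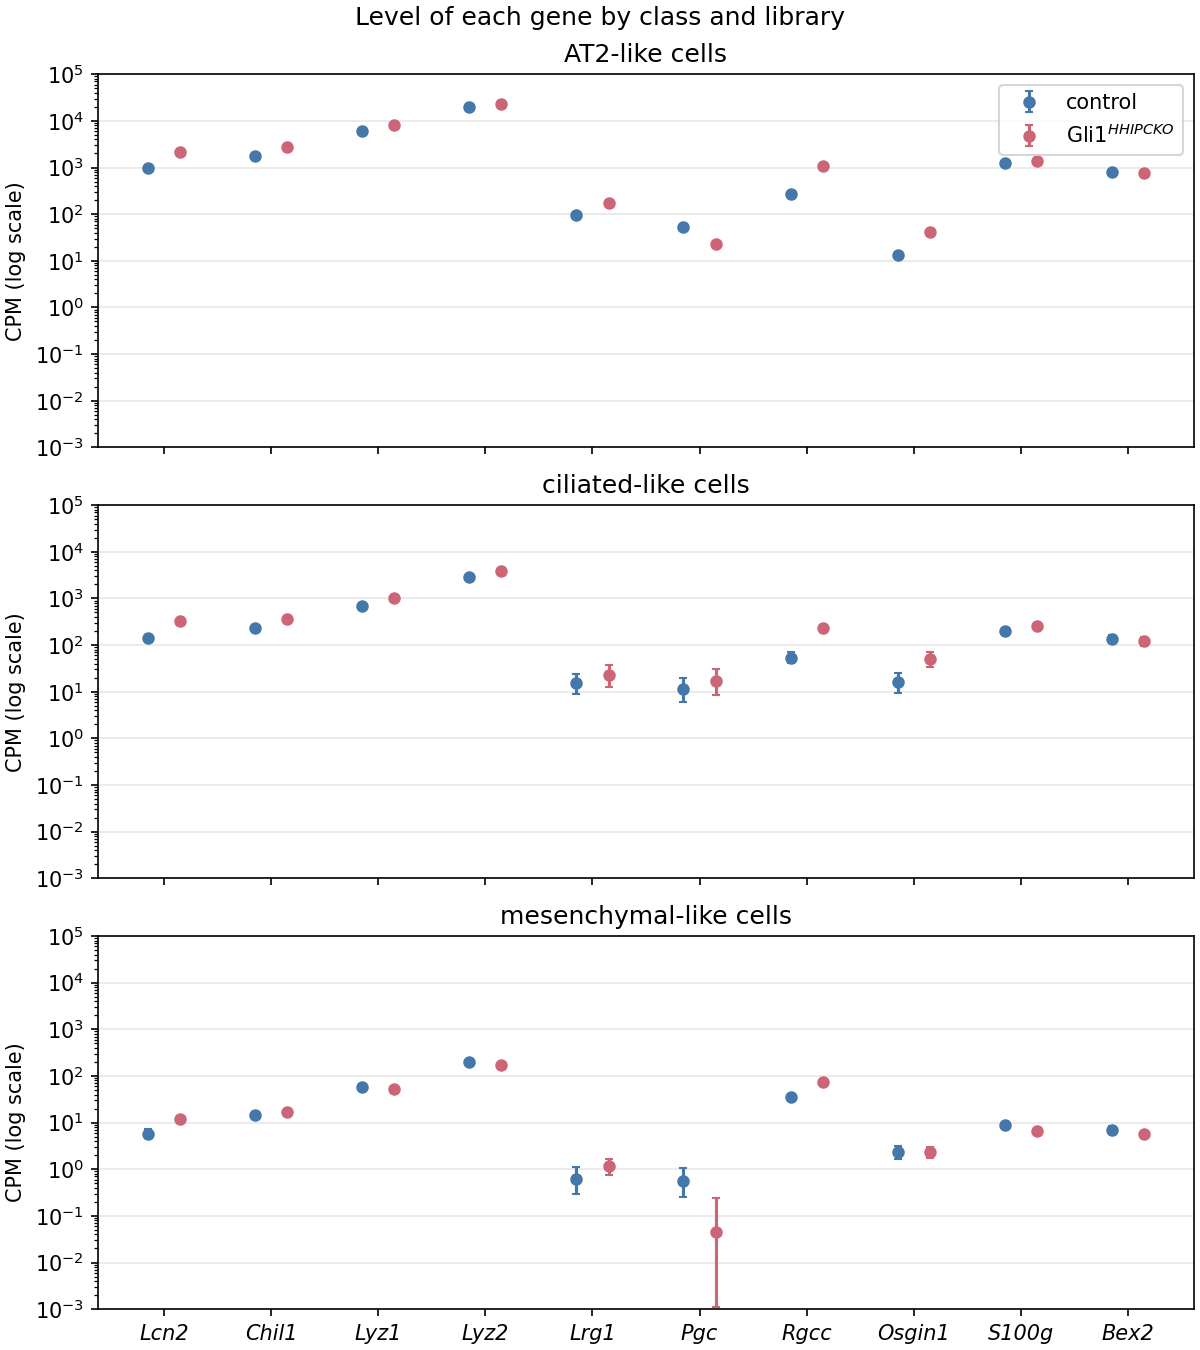
Level of each member as CPM (log axis) in AT2-like, ciliated-like and mesenchymal-like cells of control (blue) and *Gli1 HHIPCKO* (red), with exact Poisson 95% intervals for counting error. Every member is at a higher level in AT2-like than in mesenchymal-like cells of its library, by the least for *Rgcc* and *Osgin1*.

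In lymphoid-like cells (342 control and 161 *Gli1 HHIPCKO* cells, medians of 1632.5 and 1592 UMIs), *Lyz2* was at 543 CPM in control against 355 CPM in *Gli1 HHIPCKO*, with 44.4% and 37.9% of cells holding a UMI. In the deeper mesenchymal-like cells the unthinned shares were 41.0% and 38.7%. The 26 control and 5 *Gli1 HHIPCKO* lymphoid-like cells with at least 1% *Sftpc* UMIs carried 61.2% and 34.4% of the members' UMIs. Without them *Lyz2* was at 283 and 247 CPM, with a log2 ratio of -0.19 (-0.59 to 0.19), so a difference was not detectable. *Rgcc* was at 38.7 and 59.2 CPM over all lymphoid-like cells and at 40.4 and 41.6 CPM without those cells. In myeloid-like cells (125 and 40 cells), where *Lyz2* is a known product, it was at 3046 CPM in control against 1361 CPM in *Gli1 HHIPCKO*, from 1091 and 120 UMIs. *Sftpc* in the same cells was at 50982 and 2007 CPM, so AT2 transcripts differed between the libraries in this class too, and the order of *Lyz2* there is not read.

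These values come from 1 mouse per condition, so the spread between mice is unknown and no difference was tested. Tamoxifen, deletion, sex, mouse and library cannot be told apart. The class names rest on marker genes in clusters, and the AT2-like clusters were each dominated by 1 library. *Sftpc* UMIs in nearly every mesenchymal-like cell limit what low counts of a member outside AT2-like cells can say. UMIs of *Lyz1* and *Lyz2* may be lost or exchanged between the copies. Transcript counts do not give secreted protein, and no protein was measured in these files.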

How the data were processed

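Per the file headers and the labels, the authors aligned reads to mm10 with Cell Ranger and deposited filtered UMI counts per gene and cell. The header names version 6.1.0 and the labels 3.1.0; the design text names a 5′ kit and the labels a 3′ kit. The cell filter took 200 to 6000 genes and up to 10% of UMIs from mitochondrial genes, and doublets stayed in. Libraries were clustered together (10000 UMIs per cell, 2000 variable genes, 30 components, 20 neighbours, Leiden resolution 1) with 15 member and sex-linked genes held out, and clusters were named from markers, with naming thresholds set after clusters were seen. Named genes were the members, listed genes, leading genes of the AT2-like clusters and the 3 genes most alike to each member, and any further name was picked once its values were known. The members and lists were chosen with earlier results of these data known. No test was possible with 1 mouse per condition. Intervals are exact, apart from those of *Osgin1* relative to *Sftpc* and to AT2-like cells. Of the other settings tried, 13 were chosen at the start and 4 after seeing the data. Python 3.11.15, numpy 2.4.6, scipy 1.17.1, scikit-learn 1.9.0, igraph 0.11.9 and leidenalg 0.10.2 were used.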

Additional observations from a re-analysis of the deposited data

Results flagged for a closer look

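For 4 members the log2 ratio (*Gli1 HHIPCKO* over control) had a 95% interval wholly below 0 in some class of at least 20 cells per library, while its interval in AT2-like cells was above 0. The differences between classes were not tested. *Chil1*, at 0.68 in AT2-like cells, was at -1.19 in mesothelial-like, -0.55 in endothelial-like and -4.34 (-9.66 to -1.82) in myeloid-like cells, the last from 82 UMIs in control and 1 in *Gli1 HHIPCKO*. *Lyz1*, at 0.41 in AT2-like cells, was at -0.15 in mesenchymal-like, -2.66 in endothelial-like, -2.21 in myeloid-like and -1.94 in lymphoid-like cells. *Lyz2*, at 0.20 in AT2-like cells, was at -0.24 in mesenchymal-like, -0.60 in mesothelial-like, -0.42 in endothelial-like, -1.16 in myeloid-like and -0.61 in lymphoid-like cells. *S100g*, at 0.21 in AT2-like cells, was at -0.41 (-0.75 to -0.07) in mesenchymal-like cells. Of these directions, only those in mesenchymal-like and lymphoid-like cells were counted again in cells with under 1% *Sftpc* UMIs. Most of the directions counted again were not detectable. There *Lyz1* was at 0.05 (-0.08 to 0.19) in mesenchymal-like and -0.0007 (-0.78 to 0.74) in lymphoid-like cells, *S100g* at -0.06 (-0.47 to 0.35) in mesenchymal-like cells, and *Lyz2* at -0.19 (-0.59 to 0.19) in lymphoid-like cells. *Lyz2* in mesenchymal-like cells was still below 0, at -0.18 (-0.26 to -0.11). *Sftpc*, which these classes should lack, had log2 ratios of -0.81 in mesenchymal-like, -1.51 in mesothelial-like, -0.65 in endothelial-like, -4.67 in myeloid-like and -0.64 in lymphoid-like cells. In cells under 1% *Sftpc* UMIs it was still at -0.68 in mesenchymal-like and -0.63 in lymphoid-like cells. In ciliated-like, red cell-like and glial-like cells, where no member was flagged, *Sftpc* had the other direction, at 0.13, 0.22 and 2.07. The cause was not tested.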

How the results depend on the processing

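No paired analysis was possible because the groups share only replicate number 1 and no test was run. Of 140 values of members under the alternatives, 75 stayed within the interval of the reported value, 63 moved outside it with the same sign and 2 had the other sign. These values are log2 ratios, save for the difference of mean log-normalized values. *Rgcc* ranged from 1.88 to 2.09, *Lcn2* from 0.74 to 1.40, *Chil1* from 0.29 to 0.81, *Osgin1* from 0.20 to 1.79 and *Pgc* from -1.39 to -0.17. The lowest *Osgin1* and the *Pgc* value nearest 0 came from the difference of mean log-normalized values, a measure on another scale than a log2 ratio.

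With each library clustered on its own (3508 control and 2806 *Gli1 HHIPCKO* AT2-like cells), *Bex2* was at 0.01 and 0.888% of genes were at least 2-fold lower. With no genes held out (273 and 2377 cells), *Lrg1* was at -0.07, 0 members and 0.498% of genes were at least 2-fold lower; the AT2 cluster with most control cells then had more AT1 than AT2 markers among its leading genes and got no name. At 1.5-fold, 5 members and 3.75% of genes were higher and 1.49% lower, since the limit is looser. Among alternatives chosen after seeing the data, genes at least 2-fold lower were 0.186% with the collagen cluster, mostly called doublets, counted as AT2-like, 0.53% in cluster 0 alone and 0.487% in cluster 1 alone, where 0 members were lower. The 2-fold limit was not reached by *Lcn2* with no genes held out, at 0.74. It was passed by *Lrg1* with each library on its own and in cluster 1 alone, at 1.04 and 1.23. The cause was not tested. Thinning lowered all 20 shares of cells with a UMI, as fewer molecules must. Leaving out doublets (953 control and 1174 *Gli1 HHIPCKO* cells) took 0.887% and 0.751% of AT2-like cells. Depth limits *Pgc*, *Osgin1* and *Lrg1*, for which most AT2-like cells held no UMI.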
